A study of Mus musculus with 6 samples.

Results

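The chemokine receptors of macrophages are described here through 8 genes, Ccr1, Ccr2, Ccr3, Ccr7, Ccrl2, Cx3cr1, Cxcr4 and Cmklr1, chosen by symbol from the 54532 genes of the deposited expression table, and all 8 were in it. RNA was sequenced in bulk from 2 groups of 3 libraries. Both groups were labelled as primary mouse peritoneal macrophages elicited with thioglycollate for 4 days, purified by 6 h of adherence, and stimulated for 8 h with LPS at 10 ng/mL together with IFN-γ at 2 ng/mL. The control group is labelled shControl in the titles and WT as genotype, and the other group SAHH-KO in the titles and SAHH knockdown as genotype. SAHH, S-adenosylhomocysteine hydrolase, is the enzyme encoded by Ahcy that clears the by-product and inhibitor of cellular methylation reactions. The strain, the age of the mice and the means of lowering the enzyme are not given in the sources used here, and no unstimulated library was analysed here. The comparison asks how stimulated macrophages differ when this enzyme is low.

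Chemokine receptors are cell-surface proteins that cross the membrane as a bundle of helices and signal through inhibitory G proteins when a chemokine binds, which steers migrating leukocytes along chemokine gradients. Atypical members of the family, among them Ccrl2, bind a ligand without coupling to G proteins and shape its local concentration instead. On monocytes and macrophages the family is known for release from the bone marrow through Ccr2, patrolling and survival through Cx3cr1, recruitment to inflamed tissue through Ccr1, retention through Cxcr4 and passage to lymph nodes through Ccr7.

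Ahcy was read first, as a check of the labels. Its level was 25.8, 22.6 and 24.4 FPKM in the control libraries and 5.51, 5.50 and 6.23 FPKM in SAHH-KO. FPKM here are reads scaled to gene length and a library factor, as deposited. All SAHH-KO libraries lay below all controls, although 66.0% of the 50-base words of Ahcy transcripts also occur in Gm4737, so reads can be split between them. Between 15540442 and 17748745 reads per library were assigned to genes. Of 10 general macrophage genes 9 were tested, at widely differing levels. The 10 summed to 8854 to 9145 FPKM in control and 9976 to 11250 FPKM in SAHH-KO. Most of that came from Lyz2 and Cd14, with control means of 5653 and 2025 FPKM, while Itgam was at 15.3 and Fcgr1 at 2.61 FPKM in control. Of the 9 tested, 6 were higher and none lower in SAHH-KO, beside 26.4% higher and 26.8% lower over all genes tested. Other genes usual in macrophages were at or near 0. For Ciita, H2-Aa and Pycard that is against what the labels would lead one to look for. Mertk, a receptor for dying cells, had 2 reads over the 6 libraries, Ciita, the switch of MHC class II genes, and H2-Aa, a class II gene, had 0, and Pycard, an inflammasome adaptor, had 11. Ciita, H2-Aa and Pycard were named after their values were seen. Of 5 markers of resident peritoneal macrophages, Gata6, Timd4 and Lyve1 had 0 reads and Garnl3 9, and Icam2 fell to 53.7% of its control mean, from 156 to 77 reads (log2 fold change -0.50, limma adjusted p = 0.0224). Markers of eosinophils, mast cells, T and NK cells, and fibroblasts or mesothelium summed to at most 0.0287 FPKM in any library, and those of dendritic cells to 0.359. B-cell markers summed to 0 to 0.136 FPKM in control and 0.218 to 0.370 FPKM in SAHH-KO. Of the neutrophil markers, Ly6g, S100a9, Cxcr2 and Retnlg had 0 reads, and the remaining members went opposite ways. S100a8 fell from 4.63 ± 0.486 to 0.189 ± 0.251 FPKM (limma adjusted p = 1.09e-05), having passed the filter through its controls alone, and Csf3r rose from 1.62 ± 0.462 to 4.34 ± 0.424 FPKM (adjusted p = 0.000348). The list summed to at least 6.08 FPKM in every control and at most 4.81 FPKM in SAHH-KO. The part of these marker differences in the results below was not tested. In bulk RNA, fewer cells of a type and less RNA per cell cannot be told apart.

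The 8 receptor genes split into 3 that passed the filter on low values, 1 at a low level and 4 at or near 0. In SAHH-KO Ccrl2, the atypical receptor, rose 4.57-fold, while Cx3cr1, the fractalkine receptor, fell to 44.6% and Ccr1, an inflammatory chemokine receptor, fell to 16.4% of its control mean. Ccr2 was at about 0.5 FPKM in both groups. Cmklr1, Cxcr4, Ccr3 and Ccr7 had 10, 5, 4 and 0 reads over all 6 libraries. The test took genes that reached 1 FPKM in 3 or more libraries, as 3 of the 8 receptors did. Of these 3, 1 was called higher and 2 lower, at a limma adjusted p under 0.05. Over all 10362 genes tested, 26.4% were called higher and 26.8% lower, 53.3% in all, so a call in either direction was common in these libraries. The groups did not overlap for any of the 3, as for 62.3% of all genes tested (30.7% higher and 31.6% lower).

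**Figure D1:**
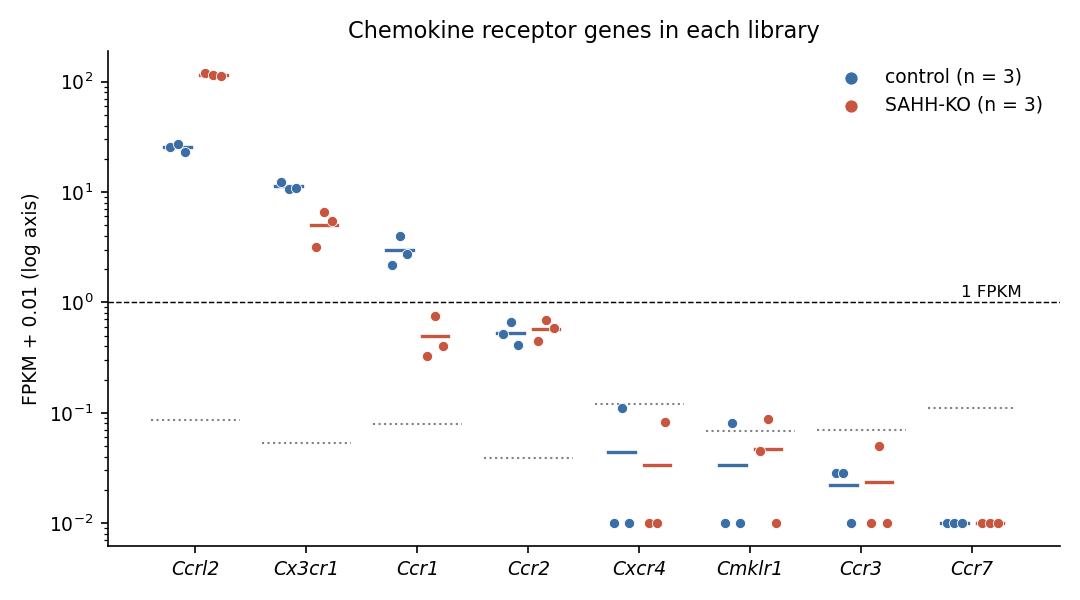
Level of each receptor gene in each library, as FPKM plus 0.01 on a log axis. Points are libraries, bars are means of 3, the dashed line is at 1 FPKM and the dotted lines mark what 3 reads are worth for that gene. Ccrl2 lies above, and Cx3cr1 and Ccr1 below, their controls in every SAHH-KO library, and Cxcr4, Cmklr1, Ccr3 and Ccr7 lie around or under their 3-read line.

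The 250 bases before the start of Ccrl2 and of Ccr1 are shown because these members had the rise and the larger fall on the scale used for the test. RefSeq gives Ccrl2 3 start sites, and the window of the outermost is shown. Both are from the RefSeq table of GRCm38.p6, read 5′ to 3′ along the minus strand of chromosome 9. Ccrl2 is cut at 249 bases, chr9:111057520-111057768, where an annotated exon begins, and Ccr1 is chr9:123968693-123968942. Capitals mark matches, on either strand, to 6 motifs: the NF-κB consensus, the interferon response element core (GAAA, any 2 bases, GAAA), the gamma-activated site TTCNNNGAA, the AP-1 site TGANTCA, the C/EBP motif TTGCNNAA and the PU.1 core GAGGAA.
Ccrl2: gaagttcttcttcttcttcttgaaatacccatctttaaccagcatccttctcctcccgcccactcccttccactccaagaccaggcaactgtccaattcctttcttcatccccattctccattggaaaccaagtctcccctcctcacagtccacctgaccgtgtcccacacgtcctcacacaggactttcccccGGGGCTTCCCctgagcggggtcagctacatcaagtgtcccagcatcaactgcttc
Ccr1: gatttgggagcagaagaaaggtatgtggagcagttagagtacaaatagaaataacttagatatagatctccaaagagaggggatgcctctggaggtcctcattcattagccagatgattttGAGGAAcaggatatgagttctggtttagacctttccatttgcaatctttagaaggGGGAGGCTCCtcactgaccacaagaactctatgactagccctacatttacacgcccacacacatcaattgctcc
The match in Ccrl2 is to the NF-κB consensus, 56 to 47 bases before this start, and the windows of its other two starts hold no match to the 6 motifs. Ccr1 holds a match to the same consensus at 74 to 65 bases and a PU.1 core at 129 to 124 bases before its start. A match of this consensus occurs in 7.25% of the 32851 windows of the same length in the table, and one of the PU.1 core in 23.3%. The gene that rose and the gene that fell therefore both hold an NF-κB consensus match, and neither window holds an interferon response element core, a gamma-activated site, an AP-1 site or the C/EBP motif. The window before Cx3cr1 holds none of the 6 motifs and is not printed, since it lies within an exon of a longer annotated transcript. Of the 8 members, 7 had an entry in the table, and Ccr7 had none.

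Ccrl2 (ENSMUSG00000043953) was the receptor gene with the highest level per length in both groups. In GRCm38 it occupies bases 111054486 to 111057519 of chromosome 9 (minus strand), with up to 3 exons in its 3 annotated transcripts. It encodes a receptor that binds chemerin and holds it at the cell surface. The controls read 25.6, 27.2 and 23.0 FPKM and the SAHH-KO libraries 119, 115 and 113 FPKM. Every SAHH-KO library was above every control by a wide gap, and the spread within each group was small. The means were 25.3 ± 2.17 (SD, n = 3) and 115 ± 3.19 FPKM, from 3342 and 14182 reads. The log2 fold change on log2(FPKM + 1) was 2.15 (SE 0.0838, 95% interval 1.96 to 2.34, limma adjusted p = 6.30e-07). Of the 10362 genes tested, 142 had a larger rise on that scale. In control 80.2% of tested genes had a lower mean level than Ccrl2, and in SAHH-KO 95.6%. Neither its exons nor its 50-base words were shared with another annotated gene.

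Cx3cr1 (ENSMUSG00000052336), the receptor for fractalkine and a marker of patrolling monocytes and many tissue macrophages, was the next in level. Its span on chromosome 9, bases 119901616 to 120069879 on the minus strand, is long because of distant small exons, and its exons cover 4505 bases. The controls read 12.3, 10.7 and 11.0 FPKM and the SAHH-KO libraries 3.16, 6.53 and 5.44 FPKM. SAHH-KO replicate 1 had the lowest level, and the other SAHH-KO libraries also lay below every control. The means were 11.3 ± 0.878 and 5.04 ± 1.72 FPKM, from 2599 and 1062 reads. The log2 fold change was -1.07 (SE 0.196, 95% interval -1.52 to -0.62, limma adjusted p = 0.00218), and 340 genes had a larger fall. Without SAHH-KO replicate 1 it was -0.82, with a limma adjusted p of 0.00126. An antisense gene, Gm33858, overlaps 1.73% of its exon bases.

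Ccr1 (ENSMUSG00000025804), which binds Ccl3, Ccl5, Ccl7 and related chemokines, had the larger fall of the 2. It lies on chromosome 9, bases 123962124 to 123968692 on the minus strand, as 1 annotated transcript of 2 exons. The controls read 2.19, 3.94 and 2.72 FPKM and the SAHH-KO libraries 0.318, 0.742 and 0.390 FPKM. Control replicate 2 was the highest library, and no SAHH-KO library reached 1 FPKM. Ccr1 therefore entered the test through its control libraries alone. The means were 2.95 ± 0.897 and 0.483 ± 0.227 FPKM, a ratio of 6.11. These levels rested on 104, 183 and 138 reads in control and 15, 32 and 17 reads in SAHH-KO. The log2 fold change was -1.40 (SE 0.178, 95% interval -1.81 to -0.99, limma adjusted p = 0.000306), and 162 genes had a larger fall. The added 1 FPKM shrinks the change of a gene this low. With 0.1 FPKM added it was -2.41, in TPM -2.11, and with voom on the recovered reads -2.64, all past the threshold.

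**Figure D2:**
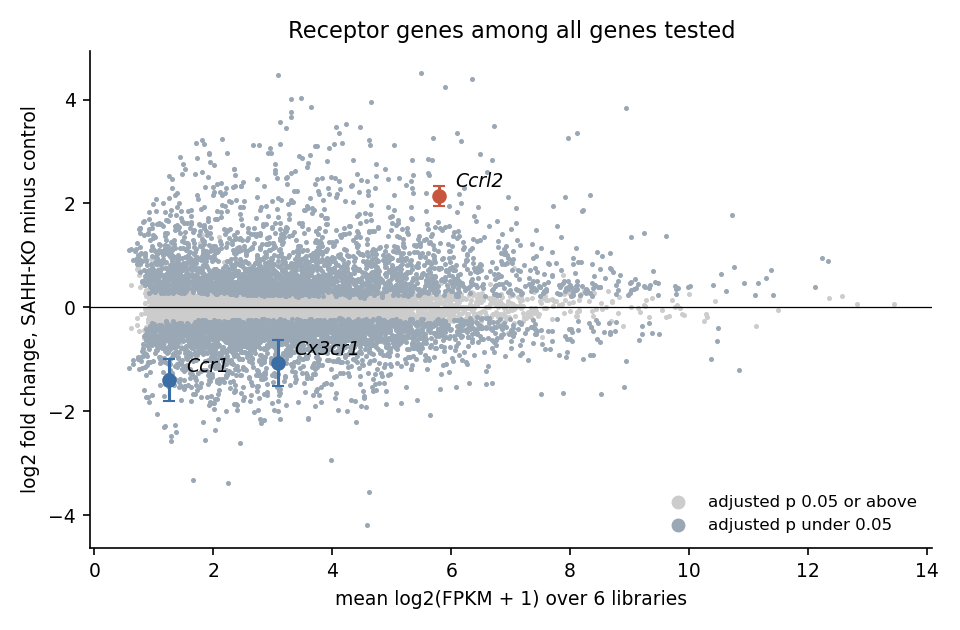
Log2 fold change of each of 10362 tested genes, SAHH-KO minus control, against its mean log2(FPKM + 1) over 6 libraries. The 3 tested receptor genes are drawn with 95% intervals: Ccrl2 at 2.15, Cx3cr1 at -1.07 and Ccr1 at -1.40, and genes called at an adjusted p under 0.05 are darker.

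The levels of the 8 genes, which FPKM puts on a common per-length scale, can be summed within a library. The sum was 37.0 to 42.7 FPKM in control and 119 to 123 FPKM in SAHH-KO. Ccrl2 made up 63.0 ± 0.912% of it in control and 94.9 ± 1.71% in SAHH-KO. Cx3cr1 went from 28.3 ± 2.87% to 4.15 ± 1.42%, and Ccr1 from 7.33 ± 1.92% to 0.397 ± 0.184%. The ratio of Ccrl2 to Cx3cr1 was 2.08, 2.55 and 2.10 in the controls and 37.6, 17.5 and 20.7 in the SAHH-KO libraries. The receptor RNA measured in SAHH-KO for these 8 genes was thus mostly that of the atypical receptor. In control the order of levels was Ccrl2, Cx3cr1, Ccr1 and Ccr2, and the ranges of these neighbours did not overlap. In SAHH-KO the ranges of Ccr1 and Ccr2 overlapped, so their order is not set by these libraries.

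Ccr2 (ENSMUSG00000049103), the receptor for Ccl2 that classical monocytes need to leave the bone marrow, was low in both groups. It is on chromosome 9, bases 124101950 to 124113557 on the plus strand. The controls read 0.503, 0.650 and 0.397 FPKM and the SAHH-KO libraries 0.436, 0.680 and 0.577 FPKM. The groups overlapped. These values rested on 48 to 72 reads in each library, well above the 3 reads taken as the floor, which are worth at most 0.0292 FPKM for this gene. Fitted without the filter, the log2 difference was 0.04 (95% interval -0.19 to 0.28, limma adjusted p = 0.774). With voom on recovered reads, where nothing is added to FPKM, it was 0.13 with a 95% interval of -0.42 to 0.69 (adjusted p = 0.733), an alternative added after the data were seen. In the same fit the value of Ccr1 was -2.64 (95% interval -3.36 to -1.92). The difference between these genes was not tested.

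The other 4 receptors were not detectable above a few reads. Cxcr4 (ENSMUSG00000045382, chromosome 1), the receptor for Cxcl12, had 3 reads in control replicate 2, 2 in SAHH-KO replicate 3 and 0 elsewhere. Cmklr1 (ENSMUSG00000042190, chromosome 5), the signalling receptor for chemerin, had 4 reads in control replicate 2, 2 and 4 in SAHH-KO replicates 1 and 2, and 0 elsewhere. Ccr3 (ENSMUSG00000035448, chromosome 9), the eotaxin receptor of eosinophils, had 1 read in each of control replicates 1 and 2 and 2 in SAHH-KO replicate 2. Ccr7 (ENSMUSG00000037944, chromosome 11), which guides dendritic cells to lymph nodes, had 0 reads in all 6 libraries, where 3 reads would be worth 0.0848 to 0.0996 FPKM. No difference between groups was detectable for these genes at this depth. Of the chemerin receptors among these 8 genes, Ccrl2 had up to 5143 reads in a library and Cmklr1 no more than 4.

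The other chemokine receptors were also sparse. Of 18 symbols on the list 17 were in the table, 7 of these had 0 reads in all libraries, and 3 were tested: Ccr10, Cxcr3 and Cxcr5, which are best known from lymphocytes. Cxcr3 read 1.20 ± 0.123 and 1.18 ± 0.105 FPKM, and Cxcr5 1.39 ± 0.263 and 1.54 ± 0.0979 FPKM, and neither was called. Ccr10 went from 1.27 ± 0.275 to 1.91 ± 0.185 FPKM (log2 fold change 0.36, limma adjusted p = 0.0313) and was the only one called higher. That call was lost under 10 of the 15 alternatives, among them TPM (adjusted p = 0.104) and leaving out control replicate 2 or 3 or SAHH-KO replicate 2 or 3 (adjusted p from 0.0767 to 0.111). The median log2 fold change of the 3 was 0.09, beside -0.01 over all genes tested, of which 26.4% were called higher.

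Several receptor genes lie side by side on chromosome 9, and the genes around Ccr2 were read by position. Within 300 kb of Ccr2 there were 9 protein-coding genes, most of them chemokine receptors. Of the 3 tested, 2 were called higher and 1, Ccr1, lower, beside 53.3% of all genes tested called in either direction. Ccr1 starts 133 kb before Ccr2 and differed 6.11-fold between groups, while Ccr2 itself overlapped between them. Between these lie Ccr1l1 with 0 reads and Ccr3 with 4 reads. The genes called higher stand at the edges of the window. Fyco1, an adaptor for the transport of autophagic vesicles, rose from 3.54 ± 0.260 to 6.57 ± 0.308 FPKM (log2 fold change 0.74, limma adjusted p = 0.000193). 2010315B03Rik entered the test through its SAHH-KO libraries alone. It went from 0.671 ± 0.202 to 1.19 ± 0.0558 FPKM (adjusted p = 0.0227), a call that was lost without the filter (adjusted p = 0.0582), in TPM (adjusted p = 0.0534) and without control replicate 1, SAHH-KO replicate 1 or SAHH-KO replicate 3 (adjusted p = 0.0501, 0.0621 and 0.0707). Cxcr6 and Xcr1 read under 0.6 FPKM in every library, and their groups overlapped. Of the receptor genes in this window, Ccr1 alone passed the FPKM filter.

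**Figure D3:**
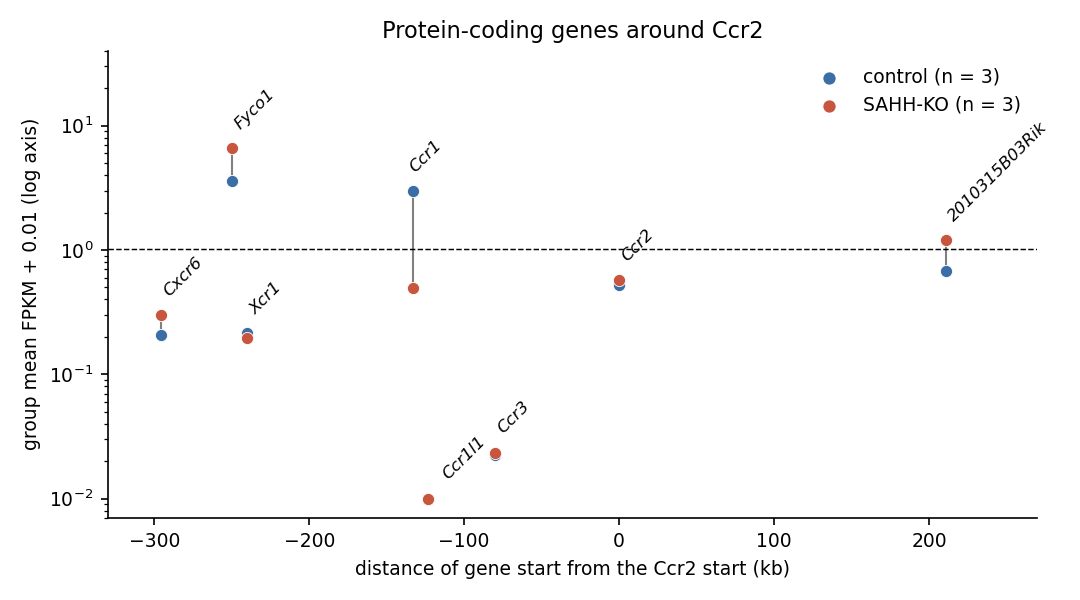
8 of the 9 protein-coding genes within 300 kb of Ccr2, by the distance of their start from that of Ccr2 in kb. Points are group means of 3 libraries as FPKM plus 0.01 on a log axis, joined by a line, and the dashed line is at 1 FPKM. Ccr1 falls from 2.95 to 0.483 FPKM, Ccr2 stays near 0.5 FPKM, and Ccr1l1 and Ccr3 lie near 0.

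The ligand genes of the 8 receptors ranged from 0 reads to a mean of 7391 FPKM, that of Ccl3 in SAHH-KO. Of 16 ligand genes 7 were tested, of which 2 were higher and 3 lower in SAHH-KO (median log2 fold change -0.16), and 6 had 0 reads in all libraries. The shares over all genes tested were 26.4% higher and 26.8% lower. Ccr1 can be read beside 5 ligands. Ccl3 stood at 7061 ± 1028 and 7391 ± 263 FPKM and Ccl9 at 869 ± 181 and 770.0 ± 94.9 FPKM, with groups that overlapped for both. Ccl5 rose where Ccr1 fell: the controls read 138, 131 and 117 FPKM and the SAHH-KO libraries 2033, 1686 and 1817 FPKM (log2 fold change 3.83, limma adjusted p = 8.37e-08). Ccl7, shared by Ccr1 and Ccr2, fell from 425 ± 105 to 133 ± 9.29 FPKM (-1.64, adjusted p = 7.39e-05). Ccl6 went from 3.19 ± 0.800 to 1.69 ± 0.915 FPKM (-0.67, adjusted p = 0.0394), with overlap between the groups. The call of Ccl6 was lost without control replicate 2 or 3 or SAHH-KO replicate 1 or 3 (adjusted p up to 0.132). The other ligand called higher, Ccl4, was named after its values were seen, and went from 2491 ± 148 to 2937 ± 76.2 FPKM (0.24, adjusted p = 0.0250). Its call was lost in TPM, without the filter, and without control replicate 1, control replicate 3 or any single SAHH-KO library, and with a library left out 1 ligand was then called higher.

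For Ccr2, whose own level did not separate the groups, its main ligand did. Ccl2, the major attractant of monocytes, read 2464, 2985 and 2871 FPKM in control and 985, 1392 and 1282 FPKM in SAHH-KO (log2 fold change -1.19, SE 0.136, limma adjusted p = 0.000168). The third ligand, Ccl12, was low, at 1.00 ± 0.614 and 0.467 ± 0.214 FPKM, and was not tested. For Cx3cr1 the ligand was itself measured. Cx3cl1, which encodes fractalkine, read 0.0760, 0.124 and 0.0854 FPKM in control and 0.597, 0.451 and 0.661 FPKM in SAHH-KO, from 5 to 8 and from 27 to 40 reads a library. Its groups did not overlap and its level stayed under the filter. Without the filter its log2 fold change was 0.52 (limma adjusted p = 0.00300), and with voom on recovered reads 2.51 (adjusted p = 0.000103). Receptor and ligand of this pair therefore differed in opposite directions between the groups. Of the ligands paired with the receptors near 0, all but Ccl5 were at 0 as well. Ccl5, high as described above, is paired with Ccr3 as well as with Ccr1. Those at 0 were Cxcl12 for Cxcr4, Ccl19 and Ccl21a for Ccr7, and Ccl11 and Ccl24 for Ccr3. Rarres2, which encodes chemerin, was at 0 too, and is paired with Cmklr1 and Ccrl2.

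**Figure D4:**
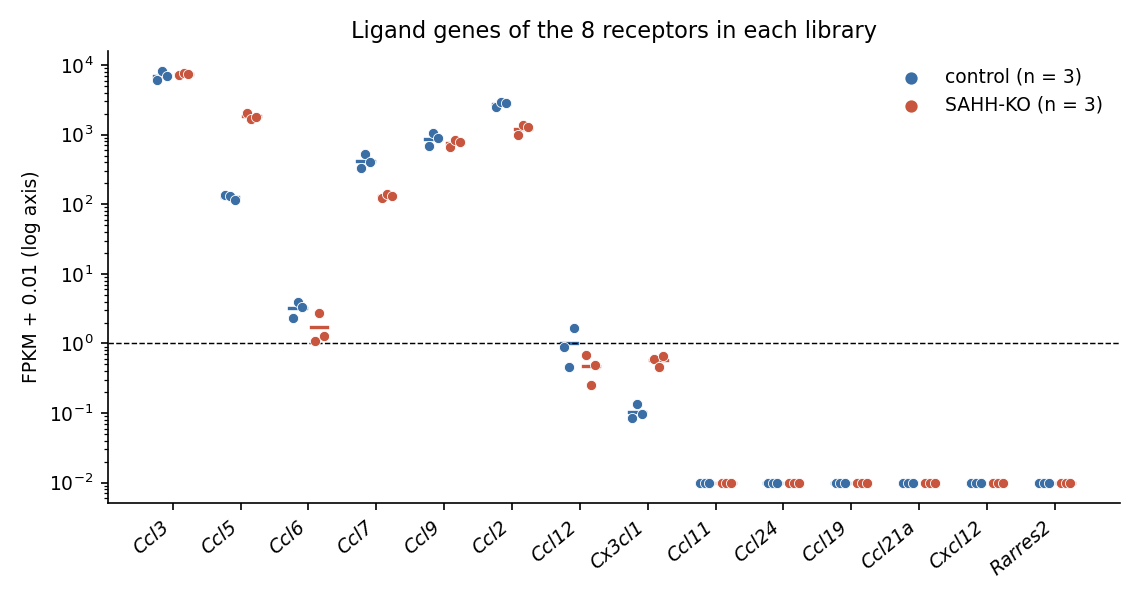
Level in each library of the ligand genes paired with the 8 receptors, as FPKM plus 0.01 on a log axis. Bars are at the means of 3 libraries and a dashed line is at 1 FPKM. Ccl4 and Ccl8, also on the ligand list, are not drawn. Ccl5 and Cx3cl1 are higher and Ccl2 and Ccl7 lower in every SAHH-KO library than in every control, and the 6 genes on the right have 0 reads throughout.

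Receptors for other attractants were read next, since macrophages also follow complement fragments, formyl peptides and lipids. Of 15 such genes 11 were tested, with 4 higher and 1 lower in SAHH-KO and a median log2 fold change of 0.0015. Over all genes tested, 26.4% were called higher and 26.8% lower, 53.3% in all. Fpr2, a formyl peptide receptor, rose from 1.56 ± 0.483 to 9.71 ± 1.27 FPKM (2.07, limma adjusted p = 1.34e-05), although 28.4% of its 50-base words occur in Gm5966. C5ar1, the receptor for complement C5a, rose from 88.5 ± 10.3 to 172 ± 10.2 FPKM (0.95, adjusted p = 9.87e-05). Ptafr, the receptor for platelet-activating factor, rose from 29.1 ± 1.54 to 47.3 ± 3.48 FPKM (0.68, adjusted p = 0.000272). The remaining gene called higher was S1pr2, a sphingosine phosphate receptor, named after its values were seen (1.27 ± 0.137 to 3.26 ± 0.824 FPKM). Gpr183, an oxysterol receptor, fell from 1.70 ± 0.170 to 0.300 ± 0.0896 FPKM (-1.06, adjusted p = 9.87e-05), having entered the test through its controls alone. In TPM 4 of these genes were called lower instead of 1, and without control replicate 2 or without SAHH-KO replicate 1 the number was 2. C5ar1, at 172 FPKM, was the only one of these named receptors above Ccrl2 in SAHH-KO.

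Downstream of the receptors, genes of G proteins, their regulators and the kinases and exchange factors of cell migration were called both ways. Of 36 genes 34 were tested, with 7 higher and 11 lower, a share called close to the 53.3% of all genes tested (median log2 fold change -0.09). Rgs16, which switches off inhibitory G proteins, rose from 4.04 ± 0.350 to 19.7 ± 2.87 FPKM (2.03, limma adjusted p = 3.92e-06). An antisense gene overlaps 10.1% of its exon bases. Pik3r6, a subunit that links phosphoinositide 3-kinase gamma to G proteins, rose from 3.27 ± 0.509 to 11.9 ± 0.957 FPKM (3.65-fold, adjusted p = 1.06e-05). The phospholipase genes diverged: Plcb3 rose from 14.9 ± 2.61 to 35.6 ± 3.14 FPKM (1.21, adjusted p = 0.000103) and Plcb2 fell from 3.65 ± 0.302 to 1.56 ± 0.209 FPKM (-0.87, adjusted p = 0.000212). In TPM 5 were higher and 18 lower, and without SAHH-KO replicate 2 or without SAHH-KO replicate 3 the number lower was 6.

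For each tested receptor, the 3 protein-coding genes closest to it in profile were found, by the root-mean-square difference of log2(FPKM + 1) centred on its mean over the 6 libraries. All 6 libraries and the group difference are shared by these profiles, and between 1202 and 1909 protein-coding genes had a Pearson correlation above 0.9 with each receptor, so closeness in profile is common here. Nearest to Ccrl2 were AC168977.1, a gene like Sp110 on a scaffold, Parp9, an ADP-ribosyltransferase gene induced by interferon, and Nfkbiz, an atypical IκB gene. Their differences from it were 0.0532, 0.0793 and 0.0846. Whether AC168977.1 shares sequence with other genes was not measured. Nearest to Cx3cr1 were Lig1, a DNA ligase of replication, Kifc1, a mitotic kinesin, and Psmc3ip, a recombination factor, at 0.104, 0.111 and 0.115. Counts of Kifc1 are uncertain, as 38.6% of its 50-base words occur in Kifc5b, and 21.2% of the exon bases of Psmc3ip are overlapped by Mlx on the opposite strand, as 9.40% of those of Parp9 are by Dtx3l. Nearest to Ccr1 were Zwilch and Mad2l1, of the mitotic checkpoint, and Tipin, of the replication fork, at 0.0646, 0.0752 and 0.0699. For both receptors that fell, SAHH-KO replicate 1 was the lowest and SAHH-KO replicate 2 the highest of its group, as also for Lig1, Kifc1, Zwilch, Tipin and Mad2l1. These genes were picked by their profile over the same libraries, so the shared order is no separate result. Its share over all genes tested was not counted. For Ccrl2 the order among SAHH-KO libraries differed, with SAHH-KO replicate 1 the highest.

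**Figure D5:**
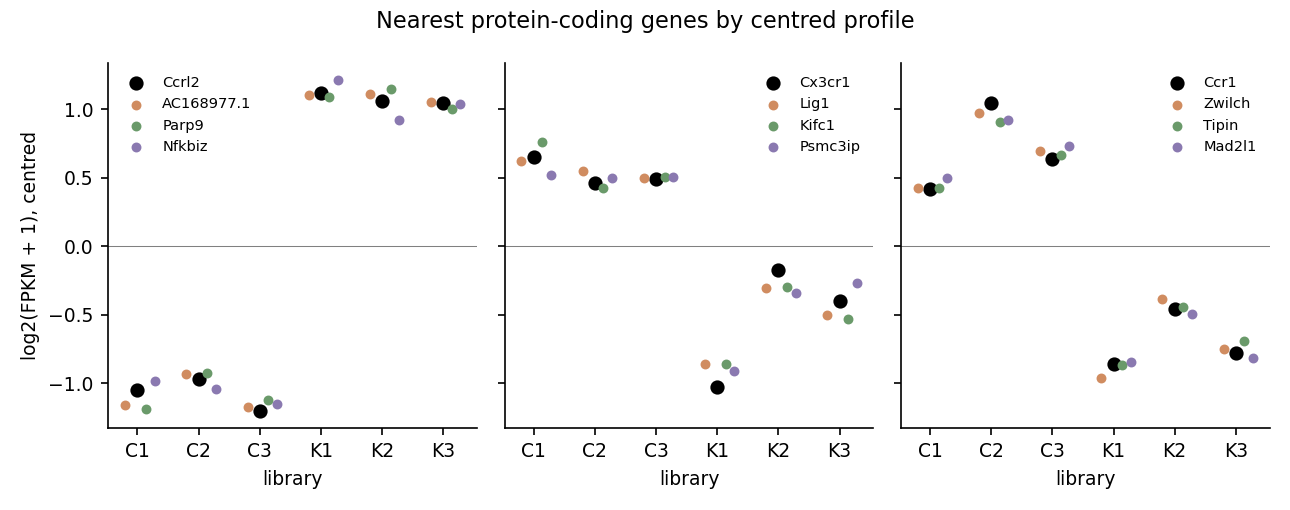
Centred log2(FPKM + 1) of the 3 tested receptors (black) and the 3 protein-coding genes nearest to each, in control libraries 1 to 3 (C1 to C3) and SAHH-KO libraries 1 to 3 (K1 to K3). The profiles of Lig1, Kifc1 and Psmc3ip follow Cx3cr1 with differences of 0.104 to 0.115, and those near Ccr1 and Ccrl2 with smaller ones.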

How the data were processed

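The authors deposited FPKM values per gene and library, with gene lengths and GRCm38 coordinates. STAR, featureCounts, Trim Galore and FastQC, with builds mm10 and GRCm38, are named in the submitters' processing notes. The step from counts to FPKM and the use of strand are not given in the sources used here. FPKM times gene length came out as whole reads within 0.01 for 100% of values above 0, and these recovered reads give the depths. The library size implied by the deposited FPKM was 1.05 to 1.07 times the assigned reads in control libraries. In SAHH-KO libraries it was 0.937 to 0.960 times the assigned reads. Deposited FPKM were thus higher per assigned read in SAHH-KO than in control, and the reason was not tested. Floors of 3 reads cover counting error only.

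Differences were tested with limma 3.58.1 (R 4.3.3, eBayes with trend) on log2(FPKM + 1), 3 control against 3 SAHH-KO libraries, two-sided, with Benjamini-Hochberg adjustment over the 10362 genes with at least 1 FPKM in at least 3 libraries. Printed 95% intervals are from this fit or, where said, voom, and rest on the spread among libraries. The script was tested on simulated data. Whether replicates came from different mice is not in the labels, and p-values rest only on the spread among these libraries, possibly technical. No libraries were identical. The members, lists, motifs and rules were chosen with earlier results of these data known. Named are the members, their paired ligands, up to 4 genes of each other pathway list with the smallest p, genes within 300 kb of Ccr2, the 3 nearest profiles per member, and Ahcy; exceptions are stated. Alternatives were a pseudocount of 0.1, other filters (none, or 0.5 FPKM), TPM, scaling by assigned reads, no trend, voom on recovered reads, a replicate block and leaving out each library. Promoters are from RefSeq (GRCm38.p6), and exons and transcripts from GENCODE M21. Protein sequences were not used here, and 1 gene near Ccr2 is not reported here.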

Additional observations from a re-analysis of the deposited data

How the results depend on the processing

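Ccrl2, Cx3cr1 and Ccr1 kept their direction and their call under all 15 alternatives, with log2 fold changes of 1.99 to 2.20, -1.32 to -0.82 and -2.64 to -1.23 and adjusted p-values of at most 5.84e-05, 0.0196 and 0.00549. Leaving out 1 library gave 2.09 to 2.20, -1.25 to -0.82 and -1.54 to -1.23. TPM and scaling by assigned reads shifted the median log2 fold change over tested genes by -0.15 and -0.13, with 2006 higher and 3894 lower genes in TPM and 2033 and 3905 by assigned reads, beside 2736 and 2782. Whether replicate numbers pair the samples cannot be decided with 3 libraries per group. Equally numbered libraries deviated together with correlations of 0.0955, 0.101 and -0.00556, and unequally numbered ones with -0.117 to 0.0284. With the replicate block 2729 genes were higher and 2761 lower, and the log2 fold change of Cx3cr1 was -1.07 (adjusted p = 0.00354). That of Ccr1 was -1.40, with an SE of 0.110 in place of 0.178 (limma adjusted p = 0.000102).

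The number of other chemokine receptors called higher went from 1 to 0 without the filter, in TPM, by assigned reads, with voom (with and without the filter) and with the replicate block, and was 0 to 1 when 1 library was left out. Ligands called higher went from 2 to 1 in TPM and by assigned reads, and were 1 to 2 with a library left out. Other attractant receptors called lower went from 1 to 4 in TPM and by assigned reads and to 2 with voom (both ways) and with the replicate block, and were 1 to 2 with a library left out. Signalling genes called lower went from 11 to 18 in TPM and by assigned reads and to 7 without the filter, and were 6 to 12 with a library left out. Of uncalled genes, Ccl3 changed sign in TPM (-0.0875), by assigned reads (-0.0855) and without control replicate 1, with -0.0263 to 0.183 over the libraries left out, Cxcr5 in TPM (-0.0076) and by assigned reads (-0.0067), and Cxcr3 without control replicate 1 (6.07e-05), control replicate 2 or SAHH-KO replicate 2, with -0.0587 to 0.0277 over the libraries left out. The cause was not tested. Depth limits the 4 receptors with at most 10 reads, for which no change could be measured.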

Other observations

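The neighbours of Ccrl2 and Cx3cr1 were also read, a choice made after the data were seen. Their calls stand beside 26.4% higher and 26.8% lower over all genes tested. Within 300 kb of Ccrl2 there were 19 protein-coding genes, of which 6 were tested and 7 had 0 reads, among them Ltf, the lactoferrin gene. Called higher, beside Ccrl2, were Als2cl and Lrrfip2, which went from 2.64 to 4.74 and from 11.4 to 16.1 FPKM, and Prss50, a protease gene, fell from 2.00 to 0.771 FPKM (limma adjusted p = 0.00306, 0.00280 and 0.0195). Around Cx3cr1 there were 13 such genes and 6 were tested. Csrnp1, an immediate early gene, rose from 10.5 ± 1.26 to 33.1 ± 3.83 FPKM (log2 fold change 1.56, limma adjusted p = 1.49e-05) and Rpsa, a ribosomal protein gene, from 527 to 699 FPKM (adjusted p = 0.00291), while Gorasp1, a Golgi protein gene, fell from 4.89 to 2.86 FPKM (adjusted p = 0.00207) like Cx3cr1 itself.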
